A study of Homo sapiens with 13 samples.

Results

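The genes described here are 39 genes of DNA replication and S phase, chosen by name as the rows of the listed symbols in every count table of the series. They were read as a measure of proliferation and cover origin licensing, helicase activation, the sliding clamp and its loader, the polymerases and primase, nucleotide supply, and regulators of S phase. Each of the 39 symbols matched 1 Ensembl ID among the 63241 gene IDs counted, and all 39 were among the 16756 genes that passed the filter on low counts and were tested. RNA was sequenced from AC16 cells, an established human line derived from ventricular heart muscle of adults through fusion with transformed fibroblasts. The 13 libraries formed 4 groups: 3 of preconditioning+FCCP, 4 of preconditioning, 3 of FCCP and 3 of control. FCCP is a protonophore that dissipates the mitochondrial membrane potential. In the design text of the series, mitochondria are preconditioned by light through mOpto, an optogenetic construct, before stress. Every library is labelled wildtype and myocyte, and whether the control and FCCP groups had mOpto or light is not stated, so preconditioning cannot be told apart from the construct or the light. Doses and times are not given in the sources used here. Separate cultures are nowhere stated for the replicates, and the p-values then cover the library spread alone, which may be technical.

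Before a cell can copy its DNA, the origin recognition complex, CDC6 and CDT1 load the ring-shaped MCM helicase on origins in G1. Kinases, CDC45, the GINS complex and MCM10 then activate the helicase, primase and polymerase alpha lay primers, and RFC loads the clamp PCNA for polymerases delta and epsilon, while ribonucleotide reductase, thymidylate synthase and thymidine kinase supply deoxynucleotides. Many of these genes are transcribed at the G1/S border under E2F factors, which is why their RNA is commonly read as a sign of dividing cells. Heart muscle cells of the adult have largely left the cell cycle, whereas AC16 cells divide in culture.

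Values are CPM, the TMM-scaled counts of a gene in each 1e6 counts of its library. A difference between groups is a log2 fold change with its standard error (SE), and sizes of a rise or fall are log2 values too. A gene is called at an adjusted p under 0.05 from edgeR's quasi-likelihood test, adjusted over all 16756 genes with the Benjamini-Hochberg method, the source of every adjusted p below unless stated otherwise.

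The libraries held 14970803 to 20636229 gene counts, and the 39 genes took 0.536% to 0.708% of them. Reads aligned to several places made up 3.16% to 11.5% of a library. The widest gap in this share parted a higher set (control 1 and 2, FCCP 1 to 3 and preconditioning+FCCP 3) from a lower set (control 3, preconditioning 1 to 4 and preconditioning+FCCP 1 and 2). FCCP and preconditioning libraries therefore each lay in 1 set. Of 12 cardiomyocyte markers only 3 passed the filter on low counts, and TNNT2, the cardiac troponin T gene, had a count of 0 in all 13 libraries, so the label myocyte was not matched by these markers. All 10 fibroblast markers passed. MKI67, the gene of the proliferation antigen Ki-67, had 355, 234 and 247 CPM in the preconditioning+FCCP libraries and 407, 339, 275 and 289.6 CPM in the preconditioning libraries, against 228, 237 and 262 CPM in the FCCP libraries and 307, 269.9 and 305 CPM in the control libraries. It was expressed in every library and was called in none of the comparisons, with log2 fold changes between -0.28 in FCCP against control and 0.20 in preconditioning+FCCP against FCCP.

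Levels differed widely among the 39 genes. Per kb of exon, averaged over the 4 group means, PCNA stood highest at 341 CPM per kb, followed by TK1 at 291, SLBP at 135, E2F1 at 113, RRM2 at 86.1, MCM7 at 83.7, MCM3 at 76.4 and FEN1 at 68.3 CPM per kb. PCNA forms the sliding clamp, TK1 phosphorylates salvaged thymidine, and SLBP binds the stem-loop of histone mRNAs. The ranges of PCNA and TK1 over the 13 libraries overlapped, from 178 to 575 CPM per kb for PCNA and from 139.7 to 556 CPM per kb for TK1. At the low end stood CCNE1 at 1.57 and CCNE2 at 2.36 CPM per kb, the E-type cyclins that open S phase, then PRIM1 at 4.53, the catalytic primase subunit, and POLA2 at 4.61 CPM per kb, the B subunit of polymerase alpha. Exon lengths came from GENCODE 29 on GRCh38, not from the build used in counting. In that annotation other genes share 46.6% of the exon bases of TYMS, 37.1% of CCNE2, 35.1% of POLA2 and 23.6% of MCM2. The share is 23.6% for GINS4, 21.6% for PRIM1 and 20.2% for RRM2. PCNA, RPA2 and RRM2 have 3 pseudogenes each named after them and TYMS has 2, and the levels of all these genes are less certain for it.

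**Figure D1:**
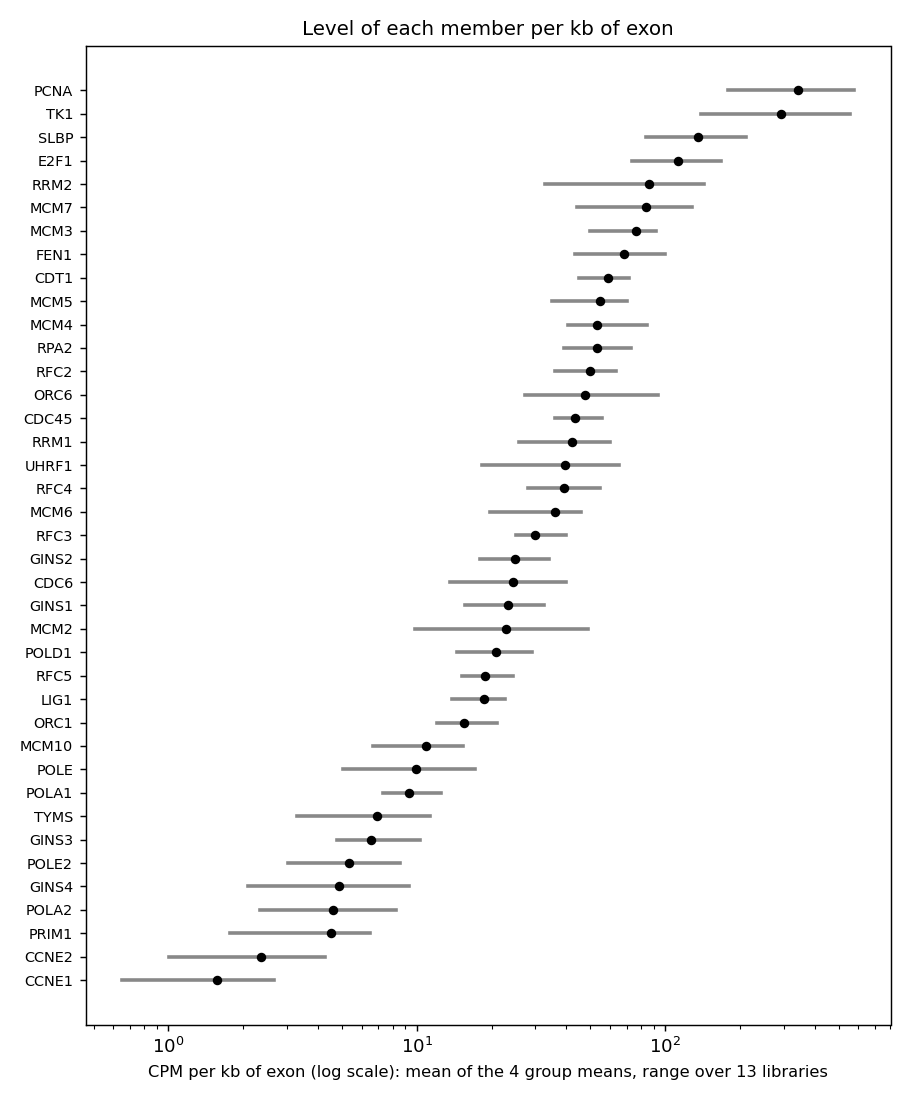
Level of each of the 39 genes in CPM per kb of exon on a log axis. Points are the mean of the 4 group means and bars the range over the 13 libraries. PCNA and TK1 stand highest at 341 and 291 CPM per kb and the cyclins CCNE2 and CCNE1 lowest at 2.36 and 1.57.

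Promoters of 34 of the 39 genes were in the set of RefSeq promoters (GRCh38.p14) used here, each from 250 bases before to 50 bases after the gene start. Of these, 19 (55.9%) held an exact E2F motif (TTTCCCGC, TTTCGCGC, TTTGCCGC or TTTGGCGC on either strand), against 3.31% of all 35116 promoters of the same length. Of 26 matches, 15 started within 50 bases of the gene start. The CCAAT motif was in 19 of the 34 (55.9%), against 34.6% of all promoters, and TTTGAA, the letters of the CHR element of genes that peak later in the cycle, was in 1 (2.94%), against 15.2%. Both were searched on both strands. The sequences are of genes with calls in the comparisons that follow: MCM2, MCM7, POLE and UHRF1, whose promoters hold E2F letters, E2F1, shown because it is itself an E2F factor and has 2 matches, and ORC6 and RRM2, which moved in opposite directions and hold none in this window. The sequences run 5′ to 3′ on the gene's strand, and capitals mark the E2F matches. MCM2 is at chr3:127598161-127598460 on the plus strand, where 2 matches on opposite strands overlap, MCM7 at chr7:100101348-100101647 on the minus strand, POLE at chr12:132687293-132687592 on the minus strand, UHRF1 at chr19:4909251-4909550 on the plus strand, E2F1 at chr20:33686336-33686635 on the minus strand, ORC6 at chr16:46689409-46689708 on the plus strand and RRM2 at chr2:10122489-10122788 on the plus strand.
MCM2: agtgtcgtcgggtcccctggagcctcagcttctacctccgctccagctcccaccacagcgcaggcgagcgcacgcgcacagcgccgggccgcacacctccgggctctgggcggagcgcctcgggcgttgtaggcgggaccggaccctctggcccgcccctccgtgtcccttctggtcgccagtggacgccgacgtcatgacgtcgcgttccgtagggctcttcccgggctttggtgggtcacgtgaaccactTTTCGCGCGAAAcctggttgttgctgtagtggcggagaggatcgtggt
MCM7: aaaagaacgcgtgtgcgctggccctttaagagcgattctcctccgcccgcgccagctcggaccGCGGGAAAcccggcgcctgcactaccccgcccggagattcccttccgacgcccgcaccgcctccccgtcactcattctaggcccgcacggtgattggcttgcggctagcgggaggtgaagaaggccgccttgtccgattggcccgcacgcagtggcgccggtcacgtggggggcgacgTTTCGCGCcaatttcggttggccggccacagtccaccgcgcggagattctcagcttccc
POLE: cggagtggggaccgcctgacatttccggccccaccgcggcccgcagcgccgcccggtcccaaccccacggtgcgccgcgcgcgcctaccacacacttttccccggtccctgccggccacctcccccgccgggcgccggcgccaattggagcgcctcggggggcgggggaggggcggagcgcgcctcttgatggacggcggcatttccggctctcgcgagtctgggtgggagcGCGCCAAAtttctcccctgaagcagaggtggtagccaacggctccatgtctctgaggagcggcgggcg
UHRF1: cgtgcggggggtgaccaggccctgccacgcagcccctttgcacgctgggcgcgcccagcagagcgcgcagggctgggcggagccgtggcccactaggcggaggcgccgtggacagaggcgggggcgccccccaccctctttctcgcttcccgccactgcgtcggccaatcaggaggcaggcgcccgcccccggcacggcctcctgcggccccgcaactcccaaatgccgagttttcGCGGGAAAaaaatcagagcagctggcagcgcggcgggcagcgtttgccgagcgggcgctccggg
E2F1: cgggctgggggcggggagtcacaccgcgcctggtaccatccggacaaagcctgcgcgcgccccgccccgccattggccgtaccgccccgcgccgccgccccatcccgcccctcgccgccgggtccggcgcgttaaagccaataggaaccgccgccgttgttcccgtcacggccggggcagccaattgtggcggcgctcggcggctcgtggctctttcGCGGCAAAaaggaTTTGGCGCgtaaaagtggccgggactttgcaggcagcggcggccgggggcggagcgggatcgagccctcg
ORC6: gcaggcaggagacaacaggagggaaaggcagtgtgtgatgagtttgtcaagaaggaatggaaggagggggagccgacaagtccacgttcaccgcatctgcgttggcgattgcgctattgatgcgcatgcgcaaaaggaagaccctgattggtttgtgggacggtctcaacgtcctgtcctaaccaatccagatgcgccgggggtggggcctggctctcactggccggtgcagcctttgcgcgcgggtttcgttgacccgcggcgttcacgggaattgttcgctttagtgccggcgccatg
RRM2: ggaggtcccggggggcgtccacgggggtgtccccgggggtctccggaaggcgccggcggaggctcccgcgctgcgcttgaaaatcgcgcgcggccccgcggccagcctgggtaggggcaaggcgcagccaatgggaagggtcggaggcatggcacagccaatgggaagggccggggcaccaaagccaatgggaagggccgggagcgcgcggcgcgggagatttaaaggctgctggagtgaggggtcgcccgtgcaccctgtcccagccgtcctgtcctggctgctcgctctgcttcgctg

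Across the libraries the 39 genes did not move as a block. Their mean log2 CPM lay between 6.54 and 6.55 in the preconditioning+FCCP libraries, 6.60 and 6.76 in the preconditioning libraries, 6.42 and 6.58 in the FCCP libraries, and 6.42 and 6.72 in the control libraries. The median log2 fold change of the 39 lay between -0.06 and 0.09 in the 6 comparisons, while in preconditioning+FCCP against preconditioning alone the genes ranged from -1.61 for RRM2 to 1.52 for ORC6. These medians moved with the processing. Scaled by library totals alone, the median of the 39 was 0.28 in preconditioning+FCCP against FCCP (0.19 for all genes) and 0.15 in preconditioning+FCCP against control (0.16 for all genes). In preconditioning against control it was 0.17 with a term for the library set and 0.20 within the lower set, against -0.02 and -0.00 for all genes. Of the 39, 28 were called in at least 1 of the 6 comparisons and 11 in none: MCM6, CDC45, GINS1, GINS2, RFC3, RFC5, POLE2, PRIM1, FEN1, LIG1 and CCNE1. These 11 hold the remaining MCM subunit, CDC45 and the flap endonuclease and ligase that finish Okazaki fragments. Within groups the genes varied less than genes at large: the median SD of log2 CPM of the 39 was 0.21 in preconditioning+FCCP (0.33 for all genes tested), 0.11 in preconditioning (0.19), 0.20 in FCCP (0.35) and 0.26 in control (0.39). The genes were not matched on level here, and counting error weighs more on genes with few counts. The lower SD is therefore not shown to be particular to replication genes.

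**Figure D2:**
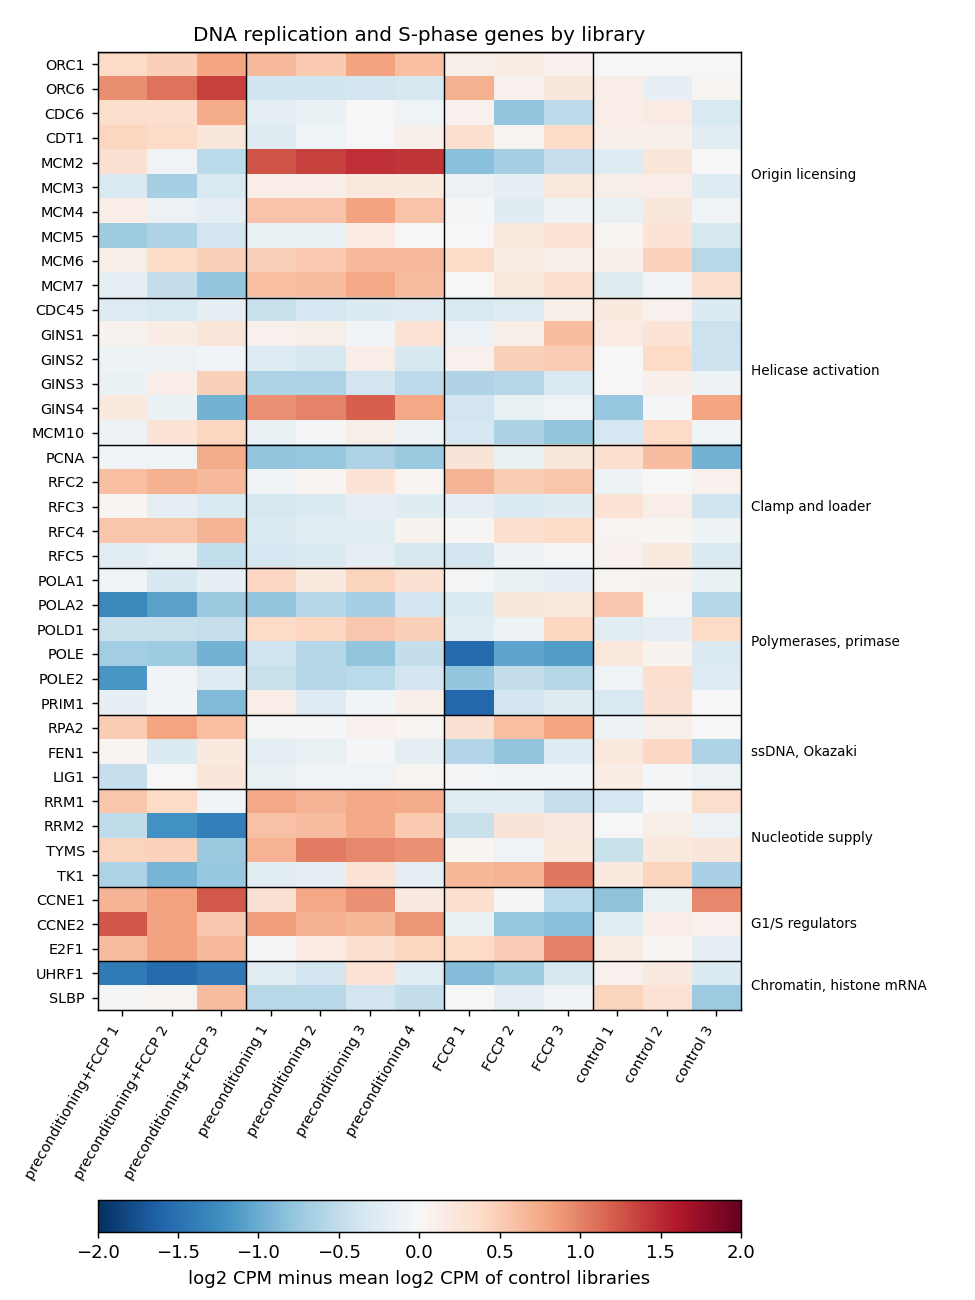
Level of each of the 39 genes in each of the 13 libraries, as log2 CPM minus the mean log2 CPM of the control libraries (red above, blue below), with genes in rows by role and groups parted by black lines. MCM2 is high in all 4 preconditioning libraries, ORC6 is high and UHRF1 low in all 3 preconditioning+FCCP libraries, and control 3 differs from control 1 and 2 at PCNA.

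Preconditioned cells had more RNA of MCM2 and ORC1 than control cells. The calls of MCM4, MCM7 and the called nucleotide supply genes were each lost when some single libraries were left out. Of the 39 genes, 8 rose and 3 fell, 28.2% of the set, near the 23.6% of all genes tested (10.5% higher and 13.0% lower). Scaled by library totals alone, 10 rose and 1 fell, with a median log2 fold change of all genes of 0.09 in place of -0.02. The risers were ORC1, MCM2, MCM4 and MCM7 of the 10 licensing genes, RRM1, RRM2 and TYMS of the 4 nucleotide supply genes, and CCNE2. The genes that fell were GINS3, PCNA and POLE. The libraries of 15 of the 39 genes did not overlap between the groups, against 36.7% of all genes. Mitochondrial genes took 1.00% to 1.85% of the gene counts in the preconditioning libraries, against 3.00% to 9.58% in the control libraries, and ribosomal protein genes took 3.65% to 4.17% in preconditioning, against 5.38% to 7.04% in control. With mitochondrial genes left out of the counts, the same 11 genes were called in the same directions; the part of the ribosomal protein share was not tested.

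MCM2 had 106, 82.4 and 59.6 CPM in the preconditioning+FCCP libraries and 206, 223, 239 and 232 CPM in the preconditioning libraries, against 48.2, 54.6 and 62.8 CPM in the FCCP libraries and 72.5, 102 and 86.9 CPM in the control libraries. Each preconditioning library stood above every other library. The log2 fold change of this helicase subunit in preconditioning against control was 1.37 ± 0.20 (SE, adjusted p = 0.00154), and the call held without each library in turn. ORC1 had 59.9, 54.9, 66.6 and 58.1 CPM in the preconditioning libraries, against 38.2, 38.3 and 38.4 CPM in the control libraries, with no overlap. ORC1 is the large ATPase of the origin recognition complex; its log2 fold change was 0.64 ± 0.15 (adjusted p = 0.00765), and the call held without each library in turn. MCM4 and MCM7 rose by 0.62 ± 0.16 and 0.64 ± 0.18 (SE). The MCM4 call was lost without control 1 (adjusted p = 0.0804), and the MCM7 call without control 1, control 2, preconditioning 2 and preconditioning 3 (adjusted p up to 0.115). MCM3, MCM5 and MCM6 were not called, with log2 fold changes of 0.16, -0.04 and 0.52.

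Among the nucleotide supply genes, RRM1 had 249, 236, 249 and 249 CPM in the preconditioning libraries, against 118, 146 and 188 CPM in the control libraries. RRM1 is the large subunit of ribonucleotide reductase, and it rose by 0.71 ± 0.19 (SE, adjusted p = 0.0145), a call that was lost without control 1 and control 2 (adjusted p up to 0.0889). TYMS had 22, 28, 26.3 and 25.4 CPM in the preconditioning libraries, against 9.98, 15.5 and 16.1 CPM in the control libraries, at a low level with no overlap. TYMS, thymidylate synthase, rose by 0.88 ± 0.27 (adjusted p = 0.0279); the call was lost without control 1, control 2, preconditioning 2, preconditioning 3 and preconditioning 4 (adjusted p up to 0.14). RRM2, the small subunit of ribonucleotide reductase, reached 679.9, 695, 761 and 649.6 CPM in the preconditioning libraries, against 449.6, 488 and 417 CPM in the control libraries. Its groups did not overlap and its log2 fold change was 0.62 ± 0.22 (adjusted p = 0.04997), just inside the threshold; the call held in 3 of 13 fits that left out a library, those without FCCP 1, preconditioning+FCCP 1 and preconditioning+FCCP 3 (adjusted p up to 0.135). TK1 of the salvage route was not called (-0.13 ± 0.23). CCNE2 had 14, 12.9, 12.5 and 14.5 CPM in the preconditioning libraries, against 6.77, 8.68 and 8.32 CPM in the control libraries, all of them below, and a log2 fold change of 0.77 ± 0.24 (adjusted p = 0.0311); the call was lost without control 1, control 2, preconditioning 1, preconditioning 2 and preconditioning 4 (adjusted p up to 0.138).

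GINS3, PCNA and POLE fell. POLE had 185, 165, 141 and 177 CPM in the preconditioning libraries, against 285, 256 and 201 CPM in the control libraries, with no overlap. POLE, the catalytic subunit of leading-strand polymerase epsilon, fell by 0.57 ± 0.17 on the log2 scale (SE, adjusted p = 0.0271); the call was lost without control 1, control 2, preconditioning 2, preconditioning 3 and preconditioning 4 (adjusted p up to 0.13). GINS3 had 24.4, 24.4, 28.9 and 26.1 CPM in the preconditioning libraries, against 37.7, 40.3 and 34.9 CPM in the control libraries, all lower than the controls. GINS3 is a subunit of the GINS complex of the active helicase, and it fell by 0.54 ± 0.17 (adjusted p = 0.0355); the call was lost without control 1, control 2, preconditioning 1, preconditioning 2, preconditioning 4 and preconditioning+FCCP 2 (adjusted p up to 0.126). PCNA had 291, 296, 329 and 301 CPM in the preconditioning libraries, against 631, 769.6 and 262 CPM in the control libraries. Here control 3 lay below all 4 preconditioning libraries and the other controls far above. The PCNA fold change was -0.86 ± 0.29 (adjusted p = 0.0414); the call held in 6 of 13 fits that left out a library, those without control 3, FCCP 1, FCCP 2, preconditioning+FCCP 1, preconditioning+FCCP 2 and preconditioning+FCCP 3 (adjusted p up to 0.242). With a term for the set it was 0.01 and within the lower set, where control 3 is the lone control, 0.22 (adjusted p = 0.34).

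Single control libraries moved this comparison as a whole. The number of the 39 called fell to 2 when control 1 was left out and to 4 for control 2, but came to 18 for control 3. Genes at large moved likewise in these fits, with 8.68%, 11.0% and 34.8% of all genes called. It was 7, 4, 6 and 5 with preconditioning 1, 2, 3 and 4 left out in turn. A term for the library set left 3 of the 39 called (ORC1, MCM2 and MCM6, all higher) and 2.74% of all genes. Within the lower set 7 were called, all higher (ORC1, MCM2, MCM4, MCM6, GINS1, RRM2 and TYMS), against 19.9% of all genes. Control 3 is the lone control there and is assumed to vary like the libraries of the other groups. The log2 fold change of MCM2 was 1.14 with the set as a term and 1.38 within the lower set, that of ORC1 0.76 and 0.65, and that of RRM1 0.37 and 0.39 with no call in either. In bulk libraries, fewer dividing cells and less RNA per cell cannot be told apart.

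FCCP without preconditioning changed POLE and RFC2 among the 39 genes. POLE fell and RFC2 rose, 5.13% of the 39, against 3.52% of all genes tested (1.60% higher and 1.92% lower). POLE had 84.1, 118 and 112 CPM in the FCCP libraries, against 285, 256 and 201 CPM in the control libraries. Every FCCP library was lower, and POLE fell by 1.24 ± 0.19 (SE, adjusted p = 0.00614), a call that held without each library in turn. Within the higher set, with 3 FCCP and 2 control libraries, its log2 fold change was -1.33 (adjusted p = 0.0447). RFC2 had 137, 121 and 126 CPM in the FCCP libraries, against 79.9, 86.5 and 91 CPM in the control libraries, all higher in FCCP. RFC2 is a small subunit of the clamp loader, and its log2 fold change was 0.58 ± 0.15 (adjusted p = 0.0442); the call held in 2 of 13 fits that left out a library, those without control 3 and preconditioning+FCCP 3 (adjusted p up to 0.123). Scaled by library totals, POLE was the gene called and RFC2 was not (0.59, adjusted p = 0.0637).

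The libraries of 11 of the 39 genes did not overlap between FCCP and control, against 19.3% of all genes. MCM2 had 48.2, 54.6 and 62.8 CPM in the FCCP libraries, against 72.5, 102 and 86.9 CPM in the control libraries, lower throughout, with a log2 fold change of -0.66 ± 0.20 that was not called (adjusted p = 0.0842). RPA2 had 105, 129 and 147 CPM in the FCCP libraries, against 78.7, 90.5 and 85.4 CPM in the control libraries, higher throughout, at 0.58 ± 0.16 (adjusted p = 0.0569). RPA2 is a subunit of the protein that coats single-stranded DNA. E2F1, the transcription factor that drives many S-phase genes, had a log2 fold change of 0.65 ± 0.19 (adjusted p = 0.0724). The number called was 4 without control 3 and 1, POLE, without each of control 1 and 2, FCCP 2 and 3, preconditioning 1 to 4 and preconditioning+FCCP 1 and 2. When FCCP 1, control 3 and preconditioning+FCCP 3 were all left out, 3 rose (E2F1, RFC2 and RPA2) and 10 fell (CDC6, MCM2, GINS3, MCM10, RFC3, POLE, FEN1, CCNE2, UHRF1 and SLBP), with 18.1% of all genes called. These 3 libraries differed most from their replicates. The chi-square per degree of freedom of their pairs was at least 71.2, against 19.9 to 25.2 for the remaining pairs of those groups. Leaving them out lowers the spread by choice, so the added calls are no independent support.

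**Figure D3:**
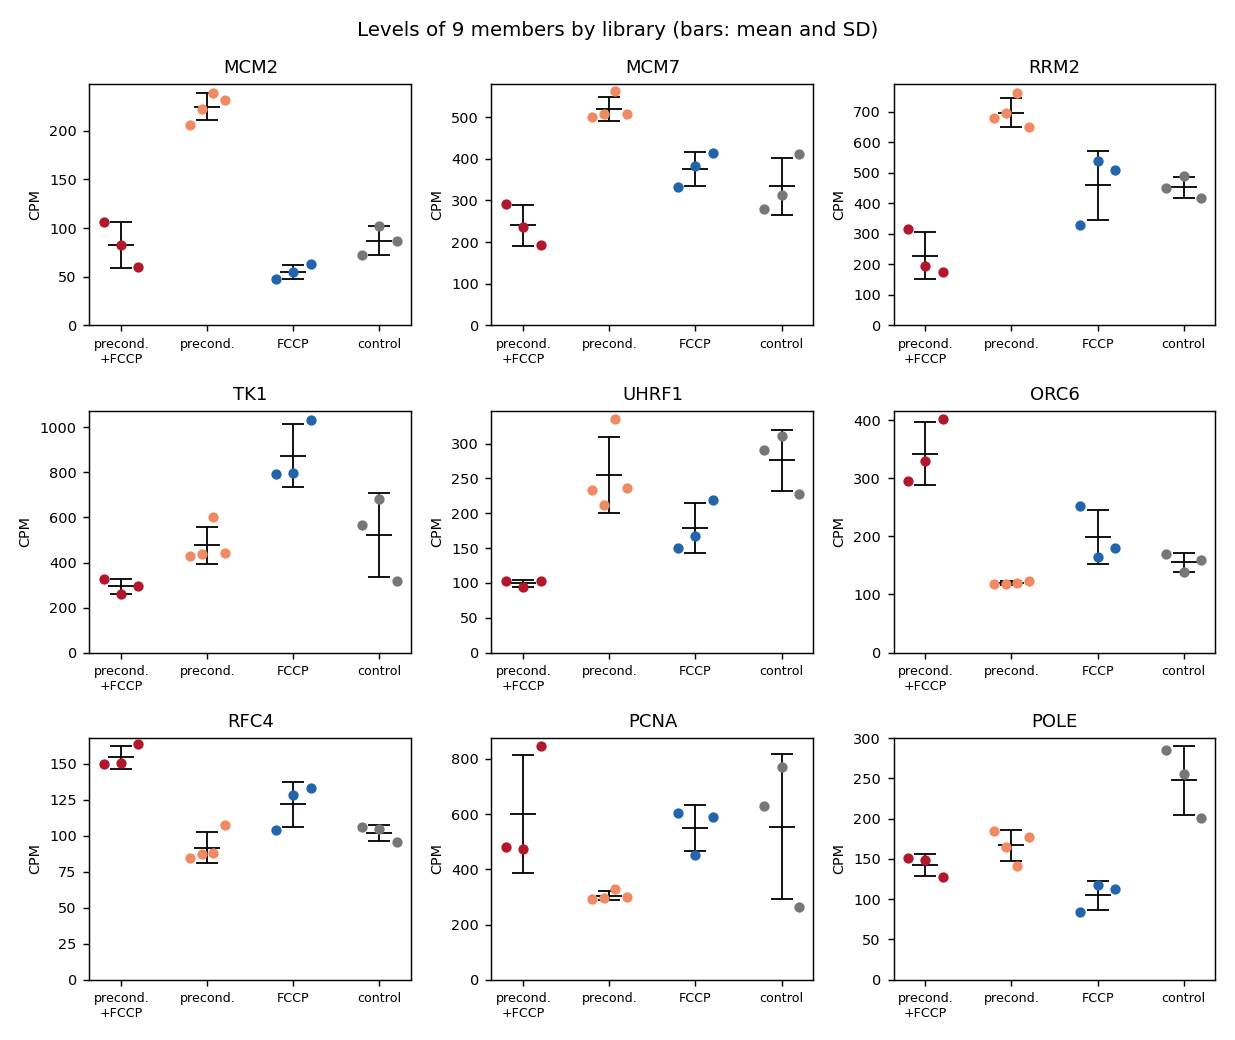
Level of 9 of the genes in CPM (linear axes from 0) by library, with preconditioning+FCCP, preconditioning, FCCP and control from left to right. Points are libraries and bars the mean and SD. MCM2, MCM7 and RRM2 are highest in the preconditioning libraries, ORC6 and RFC4 are highest and UHRF1 lowest in the preconditioning+FCCP libraries, and POLE is highest in the control libraries.

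FCCP in preconditioned cells gave more called genes of the set than any other contrast run here, in both directions. Genes at large were also called most often in this contrast. In preconditioning+FCCP against preconditioning, 10 genes rose and 12 fell, 56.4% of the 39, against 39.4% of all genes tested (20.2% higher and 19.2% lower). The libraries of 23 of the 39 did not overlap, against 52.7% of all genes. Among the genes that fell were 5 of the 6 subunits of the MCM helicase, 3 of the 4 nucleotide supply genes, the catalytic subunits of polymerases alpha and delta, GINS4 and UHRF1. The risers were the loading factors ORC6, CDC6 and CDT1, PCNA with 2 of the 4 small loader subunits, GINS3, RPA2, E2F1 and SLBP. The median log2 fold change of the 39 was 0.01, and that of all genes 0.02.

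Of the MCM subunits, MCM7 had 292, 236 and 193 CPM in the preconditioning+FCCP libraries, against 499, 508, 562 and 508 CPM in the preconditioning libraries. Each preconditioning+FCCP library was lower, and MCM7 fell by 1.11 ± 0.19 (SE, adjusted p = 0.000369). MCM2, whose values are given above, fell by 1.44 ± 0.20 (adjusted p = 8.42e-05). MCM3, MCM4 and MCM5 fell by 0.58, 0.68 and 0.54 on the log2 scale, and MCM6 was not called at -0.25 ± 0.20. The calls of MCM2, MCM4 and MCM7 held without each library in turn, that of MCM3 was lost without preconditioning+FCCP 2 (adjusted p = 0.0564), and that of MCM5 without preconditioning 3, preconditioning+FCCP 1 and preconditioning+FCCP 2 (adjusted p up to 0.0707). ORC6, CDC6 and CDT1 of the same role group rose. ORC6 had 296, 329 and 402 CPM in the preconditioning+FCCP libraries and 118, 117, 119.6 and 123 CPM in the preconditioning libraries, against 252, 164 and 181 CPM in the FCCP libraries and 169.5, 138 and 159 CPM in the control libraries. ORC6, the smallest subunit of the origin recognition complex, was highest in the 3 preconditioning+FCCP libraries and lowest in the 4 preconditioning libraries. It rose by 1.52 ± 0.17 (adjusted p = 2.1e-05), a call that held without each library in turn. CDC6 and CDT1, which load the MCM ring, rose by 0.60 ± 0.20 and 0.40 ± 0.15. For CDC6, the call was lost without preconditioning 1, preconditioning 2, preconditioning 4, preconditioning+FCCP 2 and preconditioning+FCCP 3 (adjusted p up to 0.16). For CDT1, the call held in 1 of 13 fits that left out a library, that without control 3 (adjusted p up to 0.146). CDT1 had 239.5, 230.2 and 208 CPM in the preconditioning+FCCP libraries, against 150.3, 166, 176 and 190.4 CPM in the preconditioning libraries, all higher in preconditioning+FCCP.

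Subunits of the same complex moved apart in GINS. GINS4 had 25.3, 20.2 and 11.5 CPM in the preconditioning+FCCP libraries, against 41.8, 44.2, 50.9 and 38.1 CPM in the preconditioning libraries, all lower. GINS3 had 34.4, 41.3 and 52.4 CPM in the preconditioning+FCCP libraries, against 24.4, 24.4, 28.9 and 26.1 CPM in the preconditioning libraries, all higher. GINS4 fell by 1.20 ± 0.31 (SE, adjusted p = 0.00677) and GINS3 rose by 0.72 ± 0.17 (adjusted p = 0.00417), while GINS1 and GINS2 were not called, at 0.04 and 0.09. Both calls held without each library in turn. In the clamp loader, RFC4 had 149.8, 150.4 and 164 CPM in the preconditioning+FCCP libraries, against 84.3, 87.5, 87.8 and 108 CPM in the preconditioning libraries, with no overlap. RFC4 rose by 0.75 ± 0.15 (adjusted p = 0.00103) and RFC2 by 0.58 ± 0.14 (adjusted p = 0.0038), calls that both held without each library in turn, whereas RFC3 and RFC5 had 0.12 and 0.00. PCNA, the clamp itself, had 480.4, 472 and 846 CPM in the preconditioning+FCCP libraries, against 291, 296, 329 and 301 CPM in the preconditioning libraries, and rose by 0.98 ± 0.29 (adjusted p = 0.0144). Preconditioning+FCCP 3 lay far above its replicates, and without it the PCNA call was lost (adjusted p = 0.127).

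Of the polymerases, POLD1 had 72.5, 72.8 and 71.8 CPM in the preconditioning+FCCP libraries, against 128, 134, 144 and 138 CPM in the preconditioning libraries. Every preconditioning+FCCP library was lower, and POLD1, the catalytic subunit of lagging-strand polymerase delta, fell by 0.91 ± 0.19 (SE, adjusted p = 0.00153). POLA1 had 54.7, 46.4 and 51.6 CPM in the preconditioning+FCCP libraries, against 77, 66.5, 79.1 and 71.3 CPM in the preconditioning libraries, also without overlap. POLA1, the catalytic subunit of polymerase alpha, fell by 0.53 ± 0.14 (adjusted p = 0.0081), and both calls held without each library in turn. POLE had a log2 fold change of -0.23 ± 0.17 and was not called. RPA2 rose by 0.62 ± 0.15 (adjusted p = 0.00395), with 121, 147 and 129 CPM in the preconditioning+FCCP libraries, against 83.7, 82.8, 90.2 and 86.7 CPM in the preconditioning libraries, and the call held without each library in turn.

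RRM2 had the largest fall of the 39 in this contrast. RRM2 had 317, 194 and 174 CPM in the preconditioning+FCCP libraries and 679.9, 695, 761 and 649.6 CPM in the preconditioning libraries, against 329, 538 and 508 CPM in the FCCP libraries and 449.6, 488 and 417 CPM in the control libraries. The preconditioning+FCCP libraries were the lowest of all groups and the preconditioning libraries the highest. RRM2 fell by 1.61 ± 0.23 (SE, adjusted p = 0.000106), a call that held without each library in turn. TK1 had 326, 260.1 and 295 CPM in the preconditioning+FCCP libraries and 428, 439, 601 and 441 CPM in the preconditioning libraries, against 792, 796 and 1035 CPM in the FCCP libraries and 568, 681 and 319 CPM in the control libraries. TK1 fell by 0.70 ± 0.23 (adjusted p = 0.0266), a call lost without preconditioning 3, preconditioning+FCCP 2 and preconditioning+FCCP 3 (adjusted p up to 0.0894). TYMS fell by 0.75 ± 0.27 (adjusted p = 0.035), a call lost without preconditioning 2, 3 and 4 and preconditioning+FCCP 3 (adjusted p up to 0.113). RRM1 was not called at -0.41 ± 0.18. UHRF1 had 102, 94.1 and 102 CPM in the preconditioning+FCCP libraries and 234, 212, 335 and 237 CPM in the preconditioning libraries, against 150.4, 168 and 219.6 CPM in the FCCP libraries and 290.2, 311 and 227 CPM in the control libraries. UHRF1, which brings the maintenance methyltransferase to newly copied DNA, was lowest in the preconditioning+FCCP libraries, and it fell by 1.35 ± 0.20 (adjusted p = 0.00013), a call that held without each library in turn.

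E2F1 and SLBP rose beside these falls. E2F1 had 325, 368 and 329 CPM in the preconditioning+FCCP libraries, against 204, 235, 263 and 283 CPM in the preconditioning libraries, and its log2 fold change was 0.47 ± 0.18 (SE, adjusted p = 0.0477). The groups of E2F1 did not overlap; the call held in 4 of 13 fits that left out a library, those without control 3, FCCP 1, FCCP 3 and preconditioning 4 (adjusted p up to 0.174). SLBP had 277, 292 and 429.5 CPM in the preconditioning+FCCP libraries, against 192, 192, 218 and 201 CPM in the preconditioning libraries, all higher, with a rise of 0.73 ± 0.23 (adjusted p = 0.021), a call lost without preconditioning 1, preconditioning 2 and preconditioning+FCCP 3 (adjusted p up to 0.152). CCNE1 and CCNE2 were not called, at 0.35 and 0.12. E2F letters stood in the promoters of 5 of the 9 risers with a promoter in the set used here, 6 of the 9 genes that fell and 8 of the 16 genes not called.

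Preconditioning+FCCP libraries also had less RNA of fibroblast markers: 8 of 10 fell against preconditioning and 10 of 10 against both FCCP and control. Of all genes tested, 19.2% fell against preconditioning, 17.7% against FCCP and 16.2% against control. The summed level of the 10 was 1581 to 3175 CPM in preconditioning+FCCP, 7121 to 7662 CPM in preconditioning, 7549 to 9608 CPM in FCCP and 5796 to 12816 CPM in control. Its part in the results for the replication genes was not tested. Within the lower set, which holds preconditioning+FCCP 1 and 2 and all preconditioning libraries, 10 of the 39 rose and 14 fell, among them all 22 genes called with every library; 52.0% of all genes were called in that fit.

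**Figure D4:**
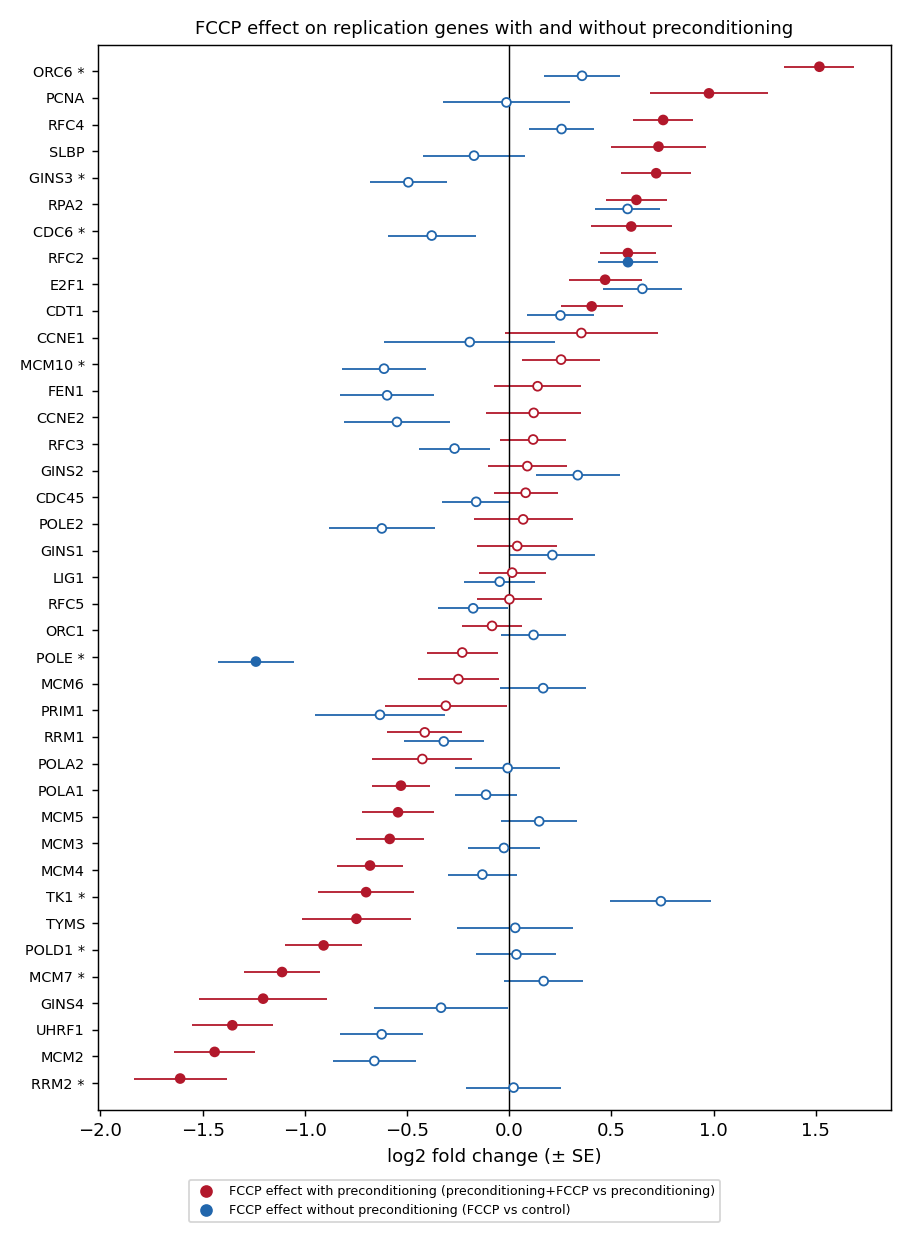
Log2 fold change (± SE) of each of the 39 genes for FCCP with preconditioning (red, preconditioning+FCCP against preconditioning) and without it (blue, FCCP against control), sorted by the red value. Filled points are called at an adjusted p under 0.05 and an asterisk marks a called interaction. With preconditioning, 10 genes lie filled to the right and 12 to the left, and without it only RFC2 and POLE are filled.

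Whether FCCP acted differently in preconditioned cells was tested by the interaction, the FCCP effect with preconditioning minus that without it. It was called for 9 of the 39 genes, 5 higher and 4 lower, 23.1%, against 19.0% of all genes tested (9.38% higher and 9.60% lower). With the library set as a term it was called for 18 of the 39, against 26.9% of all genes. Of the 10 fibroblast markers, 8 had a called interaction, all lower, with a median of -2.10 over the 10, and their part in the interaction of the replication genes was not tested. For RRM2 the FCCP effect was -1.61 with preconditioning and 0.02 without, and the difference -1.63 ± 0.32 (SE, adjusted p = 0.00377). TK1 had -0.70 with and 0.74 without, a difference of -1.44 ± 0.34 (adjusted p = 0.00934). MCM7 had -1.11 with and 0.17 without, a difference of -1.28 ± 0.27 (adjusted p = 0.00502). These genes, with POLD1 (-0.94 ± 0.27), were lower after FCCP in preconditioned cells than addition of the 2 separate effects on the log2 scale would give.

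On the other side of the interaction stood ORC6, GINS3, CDC6, MCM10 and POLE. ORC6 had an FCCP effect of 1.52 with preconditioning and 0.36 without, a difference of 1.16 ± 0.25 (SE, adjusted p = 0.00609). GINS3 had 0.72 with and -0.49 without, a difference of 1.21 ± 0.25 (adjusted p = 0.0051). POLE had -0.23 with and -1.24 without, a difference of 1.01 ± 0.25 (adjusted p = 0.0127); its called fall after FCCP was the one without preconditioning. CDC6 and MCM10, which helps to start the helicase, had differences of 0.98 ± 0.29 and 0.87 ± 0.28. The calls of ORC6, GINS3, POLE, MCM7, RRM2 and TK1 held without each library in turn. That of POLD1 was lost without control 1, control 2, FCCP 3 and preconditioning+FCCP 2 (adjusted p up to 0.0644). For CDC6, the call held in 4 of 13 fits that left out a library, those without control 3, FCCP 1, preconditioning 3 and preconditioning+FCCP 1 (adjusted p up to 0.0979), and for MCM10, the call held in 4 of 13 fits that left out a library, those without control 1, control 3, FCCP 1 and preconditioning+FCCP 1 (adjusted p up to 0.136). The number called was 6 without FCCP 3 and 6 without preconditioning+FCCP 2. For the subunits MCM2 to MCM6 the interaction ran from -0.78 for MCM2 to -0.41 for MCM6 without a call, and for RFC2 it was -0.00 ± 0.20.

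Under FCCP, cells with preconditioning differed from cells without it in 14 of the 39 genes, 8 higher and 6 lower. This is 35.9%, against 35.7% of all genes tested (17.9% higher and 17.7% lower), so the share is that of genes at large. Scaled by library totals alone, 11 were higher and 5 lower, with a median of all genes of 0.19 in place of 0.01. TK1 had 326, 260.1 and 295 CPM in the preconditioning+FCCP libraries, against 792, 796 and 1035 CPM in the FCCP libraries, far apart. TK1 fell by 1.57 ± 0.25 (SE, adjusted p = 0.000546). CCNE2 had 18.7, 13.8 and 11.5 CPM in the preconditioning+FCCP libraries, against 7.15, 4.67 and 4.42 CPM in the FCCP libraries, all higher. CCNE2 rose by 1.44 ± 0.26 (adjusted p = 0.00104). POLA2 had 13.3, 15.4 and 19.5 CPM in the preconditioning+FCCP libraries, against 26.6, 38.2 and 37 CPM in the FCCP libraries, all lower. POLA2 fell by 1.08 ± 0.26 (adjusted p = 0.00561).

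Of the licensing genes in this contrast, ORC6 rose by 0.78 ± 0.18 (SE, adjusted p = 0.00486), and CDC6, ORC1 and MCM2 rose by 0.86, 0.44 and 0.58, while MCM5 and MCM7 fell by 0.73 and 0.64 on the log2 scale. MCM5 had 258, 276 and 322 CPM in the preconditioning+FCCP libraries, against 425, 481 and 515 CPM in the FCCP libraries, with no overlap, whereas the MCM2 libraries overlapped. GINS3, MCM10 and RRM1 rose by 0.68, 0.80 and 0.61, and RRM2 and UHRF1 fell by 1.01 and 0.85. MCM10 had 58.1, 74.9 and 83.9 CPM in the preconditioning+FCCP libraries, against 48.5, 40.1 and 36.2 CPM in the FCCP libraries, all higher. The calls of ORC6, MCM5, POLA2, RRM2, TK1, CCNE2 and UHRF1 held without each library in turn. That of CDC6 was lost without FCCP 2 (adjusted p = 0.0548), that of MCM10 without FCCP 3 (0.0534), that of GINS3 without FCCP 2 and preconditioning+FCCP 3 (up to 0.0560) and that of MCM7 without FCCP 3 and preconditioning+FCCP 2 (up to 0.0574). RRM1 was lost without FCCP 2, FCCP 3, preconditioning+FCCP 1 and 2 (up to 0.111), MCM2 without FCCP 1 to 3, preconditioning 2 and preconditioning+FCCP 1 and 2 (up to 0.194), and ORC1 held in 3 of 13 fits (up to 0.157), those without control 3, preconditioning 3 and preconditioning+FCCP 1. The number called was 9 without FCCP 2 and 9 without FCCP 3.

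Against control, cells given both treatments had 7 genes higher and 6 lower, 33.3% of the 39, near the 31.2% of all genes tested (15.0% higher and 16.2% lower). Scaled by library totals alone, 9 were higher and 5 lower, with a median of all genes of 0.16 in place of -0.04. ORC6 rose by 1.14 ± 0.19 (SE, adjusted p = 0.000758), RFC2 by 0.65 ± 0.15, RFC4 by 0.60 ± 0.16 and RPA2 by 0.64 ± 0.16. CCNE2, E2F1 and ORC1 rose by 0.89, 0.69 and 0.56. UHRF1 fell by 1.47 ± 0.21 (adjusted p = 0.000358), POLA2 by 1.09 ± 0.26, RRM2 by 0.98 ± 0.23, POLE by 0.80 ± 0.19, TK1 by 0.83 ± 0.25 and MCM5 by 0.59 ± 0.19. The TK1 libraries overlapped, since control 3 had 319 CPM. MCM2, MCM4 and MCM6 were not called, at -0.08, -0.06 and 0.27. The calls of ORC6, RFC2, RFC4, POLA2, POLE, RRM2 and UHRF1 held without each library in turn. Within the lower set, where control 3 is the lone control, every gene called here kept its direction. Log2 fold changes there were smaller in size for POLE (-0.42), POLA2 (-0.59), MCM5 (-0.34), TK1 (-0.12) and ORC1 (0.44), among others. They were larger for CCNE2 (0.97), E2F1 (0.92), RFC4 (0.66) and RPA2 (0.65). PCNA, not called with every library, had 0.86 there. RPA2 and E2F1 were lost without preconditioning+FCCP 2 (adjusted p = 0.0551 and 0.0665), CCNE2 without control 1 and preconditioning+FCCP 1 (up to 0.0913), ORC1 without control 1, control 2 and preconditioning+FCCP 3 (up to 0.0681), TK1 without control 1, control 2 and preconditioning+FCCP 2 (up to 0.0930) and MCM5 without control 1, control 2 and preconditioning+FCCP 1 and 2 (up to 0.108). This contrast shares its libraries with those above.

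**Figure D5:**
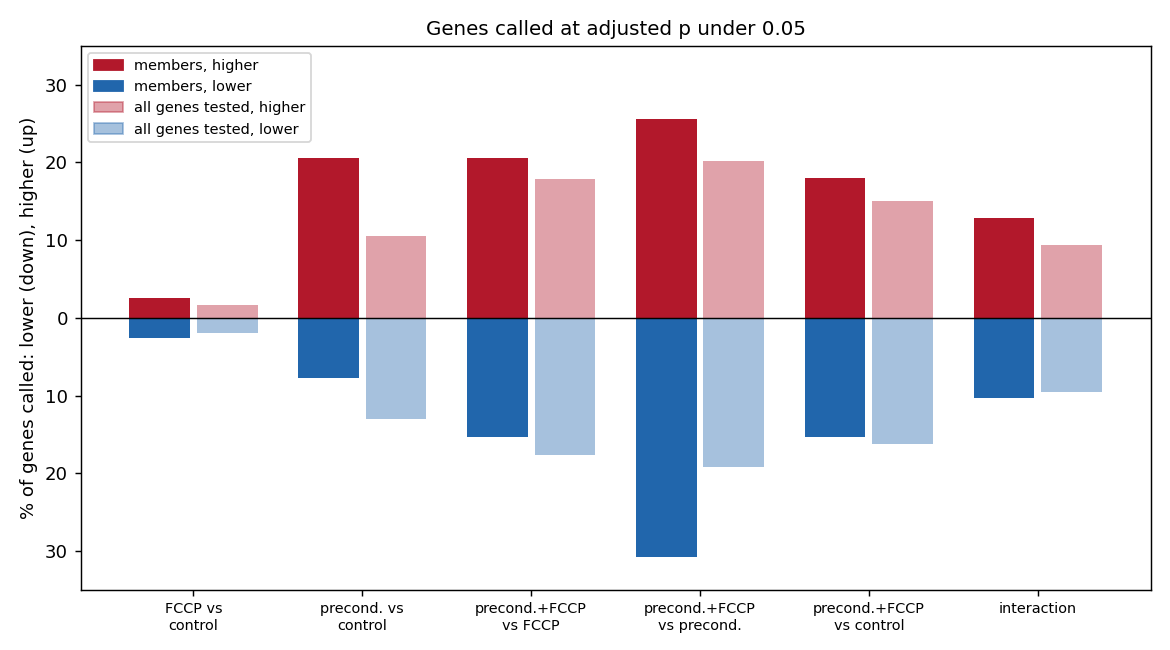
Percent of genes called at an adjusted p under 0.05 in each comparison and the interaction, higher upward and lower downward, for the 39 replication genes (dark) and all 16756 genes tested (pale). The replication genes reach 56.4% in preconditioning+FCCP against preconditioning, against 39.4% of all genes, and 35.9% in preconditioning+FCCP against FCCP, against 35.7% of all genes.

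Replication genes outside the set were read from a list of 42 other factors. In preconditioning+FCCP against preconditioning 11 of the 42 rose and 5 fell, 38.1%, near the 39.4% of all genes. TIMELESS had 72.5, 82.4 and 97.7 CPM in the preconditioning+FCCP libraries, against 167, 181, 180.1 and 186 CPM in the preconditioning libraries, all lower. TIMELESS, a fork protection factor, fell by 1.08 ± 0.15 (SE, adjusted p = 9.43e-05). DSCC1, a subunit of an alternative clamp loader, rose by 0.91 ± 0.16 (adjusted p = 0.000634) and GMNN, geminin, the inhibitor of CDT1, by 0.91 ± 0.19 (adjusted p = 0.00144). In preconditioning+FCCP against FCCP 12 rose and 8 fell (47.6%, against 35.7% of all genes), with DUT, the dUTPase, at -1.29. In preconditioning against control 4 rose and 4 fell (19.0%, against 23.6% of all genes), with TOPBP1, which helps to fire origins, at 0.60 ± 0.14, RFC1, the large clamp loader subunit, at 0.65 ± 0.16, and CHTF18 and RECQL4 at -1.08 and -0.85. FCCP against control gave 1 call (2.38%, against 3.52% of all genes), ASF1B, a histone chaperone, at 1.09 ± 0.22 (adjusted p = 0.0188). The interaction was called for 5 higher and 4 lower (21.4%, near the 19.0% of all genes), with DSCC1 at 1.19 ± 0.24. The calls named here held without each library in turn, except ASF1B in FCCP against control, lost without control 1 and FCCP 3 (adjusted p up to 0.0589).

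Genes of G2 and mitosis were measured as another reading of the cycle, 35 of 36 passing the filter. In preconditioning+FCCP against preconditioning 5 rose and 12 fell, 48.6%, against 39.4% of all genes. CCNB1 had 182, 126 and 175 CPM in the preconditioning+FCCP libraries, against 335, 319, 393 and 297 CPM in the preconditioning libraries, all lower. CCNB1, the mitotic cyclin B1, fell by 1.06 ± 0.19 (SE, adjusted p = 0.000491), DLGAP5 by 0.99 and ECT2 by 0.99 on the log2 scale. TOP2A, topoisomerase II alpha, fell by 0.65 ± 0.19 (adjusted p = 0.0122), with 462, 320.2 and 320.1 CPM in the preconditioning+FCCP libraries, against 619, 578, 508 and 597 CPM in the preconditioning libraries. CCNA2, cyclin A2 of S phase and G2, was called in none of the comparisons (-0.30 ± 0.17 here). In preconditioning+FCCP against FCCP 2 of the 35 rose and 8 fell, 28.6%, against 35.7% of all genes. In preconditioning against control 7 rose and 5 fell (34.3%, against 23.6% of all genes), with DLGAP5 at 1.08 ± 0.17, FOXM1, a driver of mitotic transcription, at 1.11 ± 0.24 and UBE2C at -1.67 ± 0.31. The calls of CCNB1, DLGAP5, ECT2, FOXM1 and UBE2C named here held without each library in turn, and TOP2A was lost without preconditioning+FCCP 2 (adjusted p = 0.0528). FCCP against control called none of the 35 in edgeR, with 5 at an unadjusted p under 0.05, and DESeq2 called 3 higher and 1 lower, with 7.94% of all genes called by DESeq2. Leaving out FCCP 1, control 3 and preconditioning+FCCP 3, 10 rose and 9 fell in preconditioning against control, 4 rose and 13 fell in preconditioning+FCCP against preconditioning, and 9 rose and 11 fell in preconditioning+FCCP against FCCP. Leaving out these libraries, the farthest from their replicates, lowers the spread for all genes. The shares of all genes are not given beside these counts, which are therefore not read as a result about G2/M genes.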

How the data were processed

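RNA of 13 AC16 libraries was sequenced after poly-T selection and random hexamer priming, per the labels' protocols, which name directional and non-directional second strands without saying which was used. The authors deposited read counts of each gene, not normalized. The submitters' processing notes name HISAT2, HTSeq and the build hg19; versions, strand setting and annotation release are not given in the sources used here. Rows that name no gene stayed out of library sizes and tests: 2.13% to 5.20% of reads fell outside genes, 11.0% to 12.4% overlapped several genes and 3.16% to 11.5% aligned to several places. Reads of overlapping and antisense genes may therefore not be told apart.

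Genes were filtered with filterByExpr of edgeR (version 4.0.16, R 4.3.3; minimum count 10), scaled by TMM and tested by quasi-likelihood in edgeR, all 13 libraries entering 1 model with group terms. Benjamini-Hochberg adjustment ran over 16756 genes. The SE is the absolute log2 fold change divided by the square root of F. No replicate pair agreed within sampling noise; their chi-square per degree of freedom was at least 3.12. Same-numbered libraries of different groups showed no shared deviation: 1 of 18 pairs had a correlation over 0.1. With so few libraries in each group, this cannot exclude pairing by number. The functions were tested on simulated counts.

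The 39 genes, the other gene lists, the tests and the alternatives were chosen with earlier results of these data known. All 39 may be named; values per library are given for up to 2 called genes per role group and comparison with the smallest adjusted p, for MKI67 and for other genes where a statement turns on them, and up to 4 called genes of each other list are named, some with values chosen after they were seen. The values of a gene among the other replication factors are not reported here. Counts of the other lists under DESeq2 (1.42.0) and with libraries left out were added after the data were seen. Alternatives were other scalings, filters, DESeq2, limma-voom (limma 3.58.1), the compared groups alone, mitochondrial genes left out, a replicate block, library sets, libraries left out and stricter thresholds.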

Additional observations from a re-analysis of the deposited data

Results flagged for a closer look

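Among the 4 preconditioning libraries, 6 of the 39 genes had a library far from the other 3 by Dixon's test, which chance gives in about 1 of 20 groups. Preconditioning 3 stood high for MCM4 (587 CPM, the others 495 to 497), MCM7 (562 CPM, the others 499 to 508), GINS2 (85.5 CPM, the others 62.2 to 65.0) and TK1 (601 CPM, the others 428 to 441). Preconditioning 4 stood high for RFC4 (108 CPM, the others 84.3 to 87.8), and preconditioning 2 stood low for RRM1 (236 CPM, the others 248.6 to 249.2). The other groups have 3 libraries and were not tested this way.

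The effect of FCCP differed with preconditioning for 9 genes by the interaction term. It was positive for GINS3 (1.21), ORC6 (1.16), POLE (1.01), CDC6 (0.98) and MCM10 (0.87), and negative for RRM2 (-1.63), TK1 (-1.44), MCM7 (-1.28) and POLD1 (-0.94), all as differences of log2 fold changes.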

How the results depend on the processing

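The counts that follow are of the 39 genes called, with those of the reported fit being 2 in FCCP against control, 11 in preconditioning against control, 14 in preconditioning+FCCP against FCCP, 22 in preconditioning+FCCP against preconditioning, 13 in preconditioning+FCCP against control and 9 in the interaction. Leaving out each library in turn gave 1 to 4, 2 to 18, 9 to 20, 15 to 23, 9 to 17 and 6 to 13 for these comparisons as listed. The number of all genes called moved in these fits too, from 142 to 893, 1506 to 6057, 3848 to 7113, 5027 to 7688, 3098 to 6657 and 2013 to 4576. A change in a count is therefore not read as a change in the replication genes. This holds for the settings below too, where the share of all genes is not given beside every count. For FCCP against control the count was 1 with library totals alone, 6 with DESeq2, 1 with the replicate block, 4 with the library set as a term, 1 within the higher set, 13 with 3 libraries (control 3, FCCP 1 and preconditioning+FCCP 3) left out, 1 at an adjusted p under 0.01 and 1 at an absolute change of at least 1. With the compared groups alone edgeR called 0 there, with 7 at an unadjusted p under 0.05. Of all genes, 3.52% were called there in the reported fit and 2.36% with library totals alone. The share was 7.94% with DESeq2, 0.316% with the replicate block, 5.6% with the set as a term and 0.111% with the compared groups alone. For preconditioning against control the count was 2 with the replicate block, 3 with the set as a term, 7 within the lower set, 23 with the 3 libraries left out, 2 at an adjusted p under 0.01 and 1 at a change of at least 1. For preconditioning+FCCP against FCCP it was 9 with the compared groups alone (27.8% of all genes), 9 at an adjusted p under 0.01 and 4 at a change of at least 1. With the set as a term it was 15, of which 10 were among the 14 of the reported fit. The share of all genes there was 21.7%, against 35.7% in the reported fit. Within the higher set, with 1 preconditioning+FCCP library assumed to vary like the others, edgeR called 0, with 16 at an unadjusted p under 0.05. For preconditioning+FCCP against preconditioning it was 14 with the replicate block, 13 at an adjusted p under 0.01 and 6 at a change of at least 1. For preconditioning+FCCP against control it was 1 within the higher set, 22 with the 3 libraries left out, 7 at an adjusted p under 0.01 and 3 at a change of at least 1. For the interaction it was 18 with the set as a term, 19 with the 3 libraries left out and 5 at an adjusted p under 0.01. The replicate block took the share of all genes from 23.6% to 11% in preconditioning against control and from 39.4% to 29.9% in preconditioning+FCCP against preconditioning. The set term took it from 23.6% to 2.74% in preconditioning against control. The 3 libraries were those farthest from their replicates, so leaving them out lowers the spread by choice. PCNA in preconditioning against control reversed, to 0.012 with the set as a term and 0.22 within the lower set. The causes were not tested. No pairing by replicate number was seen (same-number correlations -0.20 to 0.16), which does not exclude it. Other scalings, filters and limma-voom kept the counts within 1.5 times, except library totals as given. CCNE1, PRIM1, CCNE2, TYMS and POLE2, under 30 CPM in every library, had few counts, and counting error weighs most on them.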

Other observations

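Lists of the machinery upstream of S phase were read beside the 39 genes, and their adjusted p-values come from the same edgeR quasi-likelihood test over all genes. Of all genes, 3.52% were called in FCCP against control, 23.6% in preconditioning against control, 35.7% in preconditioning+FCCP against FCCP, 39.4% in preconditioning+FCCP against preconditioning, 31.2% in preconditioning+FCCP against control and 19.0% in the interaction. Of 10 G1 cyclins, kinases and related genes, 2 rose and 5 fell in preconditioning+FCCP against preconditioning. CDK4 had 48.1, 35.5 and 17.2 CPM in the preconditioning+FCCP libraries, against 86.4, 94.5, 100.1 and 95.7 CPM in the preconditioning libraries, all lower. CDK4, a G1 kinase that acts with D-type cyclins, fell by 1.49 ± 0.29 on the log2 scale (SE, adjusted p = 0.00104). CCND1 had 41, 41.2 and 61.1 CPM in the preconditioning+FCCP libraries and 208, 207, 255 and 131 CPM in the preconditioning libraries, against 61.9, 23.4 and 27.1 CPM in the FCCP libraries and 36.8, 39.6 and 252 CPM in the control libraries. Cyclin D1 RNA in control 3 lay near the preconditioning libraries and apart from the other controls, and CCND1 fell by 2.07 ± 0.56 in preconditioning+FCCP against preconditioning (adjusted p = 0.00907). Both calls held without each library in turn. In FCCP against control 1 of the 10 was called, MYC, a transcription factor of growth genes, which fell by 2.12 ± 0.40 (adjusted p = 0.0185); the call was lost without FCCP 2 (adjusted p up to 0.0579). The list had 1 higher and 0 lower in preconditioning against control, 1 higher and 0 lower in preconditioning+FCCP against FCCP, and 3 higher and 1 lower in preconditioning+FCCP against control. No gene of it was called in the edgeR interaction, with 2 at an unadjusted p under 0.05 and 1 called by DESeq2.

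Of 14 genes of cell-cycle restraint and its control, 3 rose and 2 fell in preconditioning against control, 4 rose and 2 fell in preconditioning+FCCP against preconditioning, 3 rose and 2 fell in preconditioning+FCCP against FCCP, 2 rose and 3 fell in preconditioning+FCCP against control, and 1 fell in FCCP against control. That gene was MDM2 (-0.95 ± 0.17), which is itself no brake but the inhibitor of p53. RBL2 had 40.0, 40.9 and 23 CPM in the preconditioning+FCCP libraries and 111, 109.7, 89.9 and 121 CPM in the preconditioning libraries, against 35, 53.6 and 41.6 CPM in the FCCP libraries and 54.5, 68.1 and 44 CPM in the control libraries. RBL2, the pocket protein p130, which acts with E2F factors in resting cells, was highest in the 4 preconditioning libraries. It rose by 0.96 ± 0.22 in preconditioning against control (SE, adjusted p = 0.00826), fell by 1.64 ± 0.23 in preconditioning+FCCP against preconditioning (adjusted p = 0.000104) and had an interaction of -1.28 ± 0.33 (adjusted p = 0.0135), calls that held without each library in turn. CDKN1A, the CDK inhibitor p21, rose by 0.59 ± 0.20 in preconditioning against control (adjusted p = 0.043); the call held in 5 of 13 fits that left out a library, those without FCCP 1, FCCP 3, preconditioning 3, preconditioning+FCCP 1 and preconditioning+FCCP 3 (adjusted p up to 0.127). The interaction was called for 1 higher and 1 lower of the 14, GADD45A at 1.94 ± 0.57 and RBL2. For GADD45A, the call was lost without control 3, FCCP 2, FCCP 3, preconditioning+FCCP 2 and preconditioning+FCCP 3 (adjusted p up to 0.0824).

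Of the 9 other E2F and DP factors, 4 rose in preconditioning+FCCP against FCCP: E2F7, a repressor of E2F targets, by 1.18 ± 0.25, E2F6, also a repressor, by 1.10 ± 0.22, E2F2, an activator, by 0.93 ± 0.23 and TFDP2, a dimer partner, by 0.75 ± 0.18 on the log2 scale (SE). E2F6 had 23.2, 22.2 and 18.2 CPM in the preconditioning+FCCP libraries and 20.4, 19.7, 21.1 and 23.2 CPM in the preconditioning libraries, against 8.12, 10.7 and 10.9 CPM in the FCCP libraries and 15, 16.8 and 23.2 CPM in the control libraries. E2F6 was lowest in the 3 FCCP libraries, and it fell by 0.88 ± 0.22 in FCCP against control (adjusted p = 0.0389); the call held in 3 of 13 fits that left out a library, those without control 1, preconditioning+FCCP 1 and preconditioning+FCCP 3 (adjusted p up to 0.0744). The 4 rises held without each library in turn. The list had 0 higher and 1 lower in preconditioning+FCCP against preconditioning, 3 higher and 0 lower in preconditioning+FCCP against control, and 1 higher in the interaction, E2F6, where the call held in 2 of 13 fits that left out a library, those without control 1 and preconditioning+FCCP 3 (adjusted p up to 0.0965). In preconditioning against control none was called by edgeR, with 3 at an unadjusted p under 0.05 and 0 called by DESeq2.

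Markers of other cell types were counted too. Of 6 smooth muscle markers 2 fell in preconditioning+FCCP against preconditioning, with 2 of the 5 endothelial markers that passed the filter and 1 of 2 immune markers. Against FCCP, preconditioning+FCCP cells had 3 smooth muscle, 2 endothelial, 1 of 3 cardiomyocyte and 1 immune marker lower. Against control they had 3 smooth muscle, 1 endothelial and 1 cardiomyocyte marker lower. In preconditioning against control 2 of the 5 endothelial markers rose and 1 of 10 fibroblast markers fell. The interaction was called lower for 2 smooth muscle and 2 endothelial markers. Of all genes tested, preconditioning+FCCP had 19.2% lower against preconditioning, 17.7% against FCCP and 16.2% against control. Preconditioning against control had 10.5% higher and 13.0% lower, and the interaction 9.60% lower. The lists are short, so small counts in them are not read as a result about a cell type. In FCCP against control edgeR called no marker of these lists or of the fibroblast list, with 2 at an unadjusted p under 0.05 and 1, an immune marker, called by DESeq2. Their part in the results for the replication genes was not tested.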
